A study of Mus musculus with 6 samples.

Results

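The genes described here encode proteins of the central myelin sheath and of the mature oligodendrocyte that makes it. They are known genes of these cells, were chosen with earlier results of these data known, and number 9: Mbp, Mobp, Mog, Mag, Mal, Cnp, Cldn11, St18 and Prr5l. The deposited tables name 25696 mouse genes in all, 16845 of them in every table, and all 9 are in every table.

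Oligodendrocytes wrap axons in layers of their own membrane. In compact myelin the cytoplasmic faces of these layers are pressed together by small basic proteins, while other myelin proteins sit in the uncompacted channels, at the innermost turn against the axon or on the outer surface of the sheath. Messenger RNAs of several myelin proteins, Mbp above all, are carried out of the cell body and translated beside the growing sheath, so a preparation of nuclei sees mostly the transcripts that have not left.

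Mbp (myelin basic protein) and Mobp (myelin-associated oligodendrocyte basic protein) are the basic proteins of compact myelin. Mal is a small proteolipid of membrane rafts that takes part in sorting membrane to the sheath, and Cldn11 is the claudin that forms the tight junctions between myelin turns. Cnp is a cyclic nucleotide phosphodiesterase of the uncompacted cytoplasmic channels. Mag is an adhesion protein of the periaxonal membrane, and Mog is an immunoglobulin-family protein of the outermost myelin surface. St18 is a zinc finger transcription factor of the Myt family, and Prr5l is a protein that binds an mTOR complex. In the GENCODE models of build GRCm38 the members differ greatly in how much of the gene is intron. Of the 373.7 kb of St18 on the plus strand (chr1:6487231-6860940) 1.73% is exonic, and of the 168.7 kb of Prr5l on the minus strand (chr2:101714285-101883027) 2.94%. The exonic share was 7.66% of the 110.5 kb of Mbp and 25.9% of the 15.7 kb of Mag on the minus strand (chr7:30899176-30914873).

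Because these genes are expressed together in mature oligodendrocytes, the stretches in front of their start sites were searched for motifs of factors known to act in that cell type, and 5 of them are printed to show what those stretches hold. RefSeq promoters of build GRCm38.p6 were listed for 7 of the 9 members, and for Mbp and St18 none was used. The search covered the 250 bases before the first listed start, on both strands, for CTGGCAC and CTGGTAC, the core motif of the myelin regulator Myrf (GTGCCAG and GTACCAG on the opposite strand), and for ACAAAG, a core motif of Sox factors (CTTTGT on the opposite strand). These motifs do not overlap each other. Among 32851 stretches of the same length, 5.93% held CTGGCAC or CTGGTAC and 16.5% held ACAAAG. Of the 7 members, Mag, Cnp and Mog held a Myrf motif and Mobp, Mag, Cnp and Prr5l held the Sox motif, while neither was found in Mal or Cldn11. The stretches are written 5′ to 3′ on the strand of the gene, ending just before the first annotated start, with motif matches in capitals. They lie at chr7:30914874-30915113 (Mag, minus strand), chr11:100574689-100574903 (Cnp, plus strand), chr17:37023399-37023648 (Mog, minus strand), chr9:120149492-120149706 (Mobp, plus strand) and chr2:127656696-127656945 (Mal, minus strand).
Mag: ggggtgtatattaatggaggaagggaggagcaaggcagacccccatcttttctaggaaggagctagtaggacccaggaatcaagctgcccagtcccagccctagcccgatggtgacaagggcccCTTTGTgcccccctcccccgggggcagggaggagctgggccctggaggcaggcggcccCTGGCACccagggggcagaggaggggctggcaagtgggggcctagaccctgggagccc
Cnp: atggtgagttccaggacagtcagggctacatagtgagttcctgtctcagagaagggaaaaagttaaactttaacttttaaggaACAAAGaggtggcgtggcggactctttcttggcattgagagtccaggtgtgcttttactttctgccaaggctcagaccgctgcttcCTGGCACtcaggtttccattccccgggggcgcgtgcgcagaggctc
Mog: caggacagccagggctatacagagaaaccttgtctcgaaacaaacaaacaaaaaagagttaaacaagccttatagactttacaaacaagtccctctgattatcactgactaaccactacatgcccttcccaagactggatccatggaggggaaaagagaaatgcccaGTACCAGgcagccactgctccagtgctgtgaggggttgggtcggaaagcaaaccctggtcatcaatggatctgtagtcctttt
Mobp: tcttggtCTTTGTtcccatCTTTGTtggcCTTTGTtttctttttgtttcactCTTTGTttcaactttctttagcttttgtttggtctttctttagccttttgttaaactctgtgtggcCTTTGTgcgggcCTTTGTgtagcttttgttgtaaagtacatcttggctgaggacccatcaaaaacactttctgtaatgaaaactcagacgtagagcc
Mal: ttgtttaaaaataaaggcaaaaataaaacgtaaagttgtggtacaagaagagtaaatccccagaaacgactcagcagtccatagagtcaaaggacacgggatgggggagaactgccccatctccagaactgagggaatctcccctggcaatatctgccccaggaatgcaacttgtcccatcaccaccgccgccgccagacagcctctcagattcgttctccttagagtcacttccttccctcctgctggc
Mag and Cnp each held 1 copy of CTGGCAC and 1 Sox motif, Mog held CTGGTAC on the opposite strand, and Mobp held 6 copies of CTTTGT. Of the 32851 stretches, 1 held 6 or more copies of the Sox motif, and that was Mobp. A match describes the letters only, since binding was not measured.

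The study tested ways to take the wax out of mouse brain fixed in formalin and embedded in paraffin (FFPE) before nuclei are isolated for RNA sequencing. The material was labelled cortex of C57BL/6J mice aged 8 to 12 weeks, cut as scrolls 50 µm thick. Paraffin was removed with heated mineral oil, heated xylene or room-temperature xylene, and the tissue was then rehydrated through ethanol and lysed, and nuclei were sorted. Nuclei of frozen brain, given as such in the authors' annotation and not in the sample labels, served for comparison. The sorted nuclei were measured as bulk wells with SCRB-seq, which counts transcript ends, as bulk wells with SMART-Seq2, which covers whole transcripts, as single nuclei in plates with SMART-Seq2, and as single nuclei in droplets. SCRB-seq held 8 wells of 10 nuclei and 8 wells of 100 nuclei in each of the 4 groups. Each such set of 8 was 1 library pool, so pool and group cannot be told apart. SMART-Seq2 held 1 well each of 10, 50 and 100 nuclei in each of the 4 groups. The wells of an assay are technical wells of 1 GEO sample, so their p-values measure the spread between wells and not between animals.

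Depth differed between the groups. SCRB-seq wells held 7512 to 105967 mouse counts with mineral oil, 28953 to 147257 with heated xylene, 23015 to 128394 with room-temperature xylene and 17611 to 167144 in frozen tissue, and SMART-Seq2 wells 270363 to 942966. All 8 wells of 10 mineral oil nuclei together held 115185 counts. Markers of cerebellar granule neurons went against the labelled cortex in FFPE nuclei: the 7 measured markers summed to between 295 and 6115 counts per 1000000 counts (CPM) in FFPE wells of SCRB-seq and to between 0 and 101 in frozen wells, where Gabra6 and Cbln3 were at 0. In SMART-Seq2 they summed to between 1318 and 3894 CPM in FFPE wells and to between 48.1 and 144 in frozen wells, where Gabra6, Cbln1, Cbln3 and Zic1 were at 0. In each assay 6 of the 6 markers tested were higher in FFPE. Of all genes tested, 58.0% differed in either direction in SCRB-seq and 1.45% were higher in SMART-Seq2, at an adjusted p under 0.05. Markers at or near 0 in frozen wells can pass the filter on low counts through FFPE wells alone. These markers move with every FFPE against frozen result below, and their part in those results was not tested. In bulk wells, fewer cells of a type and less RNA per cell cannot be told apart.

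In SCRB-seq, 8 of the 9 genes were higher after either xylene treatment than in frozen nuclei, where 18.9% (heated) and 16.0% (room temperature) of all genes were higher, and with DESeq2's size factors 5 and 6 were. After mineral oil 7 were lower than after either xylene, against 10.3% and 9.77% of all genes. Mag was the member missing from a whole group, mineral oil. Mbp, the most counted member, ranged from 64.7 to 425 CPM over the 16 frozen wells, with a median of 204. With heated xylene it ranged from 197 to 1012 (median 439), with room-temperature xylene from 35.2 to 2477 (median 417), and with mineral oil from 0 to 402 (median 34.2). Mbp had no count in any of the 8 mineral oil wells of 10 nuclei, which allows up to 26.0 CPM over their summed counts, and had counts in all 8 wells of 100, where it ranged from 68.3 to 402 CPM. The wells of 100 nuclei of both xylene groups lay above every frozen well of that size. Mobp had a count in 9 of 16 frozen wells, with a median of 16.4 CPM and a highest value of 270.4, and in 7 of 16 mineral oil wells, up to 90.3. All 16 wells of each xylene group held Mobp, with medians of 102.5 CPM (61.1 to 429.8) after heated xylene and 101 (18.3 to 308) after room-temperature xylene.

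Mal was the member with no overlap between frozen wells and either xylene group. It was counted 4 times in all, in 3 of the 16 frozen wells, and reached 16.7 CPM at most. Every well of both xylene groups lay above every frozen well, from 76.7 to 474 CPM (median 127) with heated xylene and from 18.2 to 2086 (median 129) at room temperature. With mineral oil it was in all 8 wells of 100 nuclei and in no well of 10, up to 154 CPM. Cldn11, the tight junction protein, was in 6 frozen wells, up to 26.6 CPM, and in all 16 heated xylene wells, from 122 to 654 (median 209.6), so that those groups did not overlap. It overlapped with frozen wells after room-temperature xylene, where it ranged from 0 to 1477 CPM with a median of 24.8, and after mineral oil, from 0 to 109.6.

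Cnp, the enzyme of the uncompacted channels, was in 7 frozen wells, up to 117 CPM, in 10 heated xylene wells, up to 289.9 (median 40.3), and in all 16 room-temperature xylene wells, from 34.1 to 652 (median 107). It had 1 count in 1 of 16 mineral oil wells. Mag, the periaxonal adhesion protein, had no count in any of the 16 mineral oil wells, which allows up to 4.39 CPM over their summed counts (3 counts of the total). It had 21 counts in 9 frozen wells, 136 in 13 heated xylene wells and 155 in 14 room-temperature xylene wells, with highest values of 66.8, 362 and 782 CPM. Over the summed counts of each group, Mag was thereby at least 4.49-fold lower with mineral oil than in frozen wells, at least 27.5-fold lower than with heated xylene and at least 30.3-fold lower than with room-temperature xylene, with a floor of 3 counts over the group. Mog, the surface protein, was in 11 frozen wells, up to 133 CPM (median 16.1), and in 6 mineral oil wells, up to 97.4. All xylene wells held Mog, from 74.7 to 249.6 CPM with heat (median 167) and from 52.8 to 521 at room temperature (median 124).

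St18 and Prr5l were the members not called lower with mineral oil than with xylene. Their genes have the smallest exonic share, and a link between that share and the calls was not tested. St18, the transcription factor, ranged from 0 to 95.4 CPM in frozen wells (median 31.5), from 0 to 559 with mineral oil (median 89.5), from 0 to 539 with heated xylene (median 69.4) and from 30.8 to 624 with room-temperature xylene (median 179). Prr5l ranged from 0 to 89.8 in frozen wells (median 39.1), from 0 to 183 with mineral oil (median 20.5), from 0 to 447 with heated xylene (median 42.6) and from 0 to 333 at room temperature (median 89.5). The 4 groups overlapped for both. St18 and Prr5l were the only members with any count in the mineral oil wells of 10 nuclei, where the 9 genes had 5 counts among them, 3 of St18 and 2 of Prr5l. Of all member counts Mbp made up 33.2% in mineral oil wells, 48.7% in frozen wells and 30.6% in all FFPE wells. St18 made up 29.7%, 10.9% and 11.8% of them in the same groups. The plot of every well shows these ranges gene by gene.

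**Figure D1:**
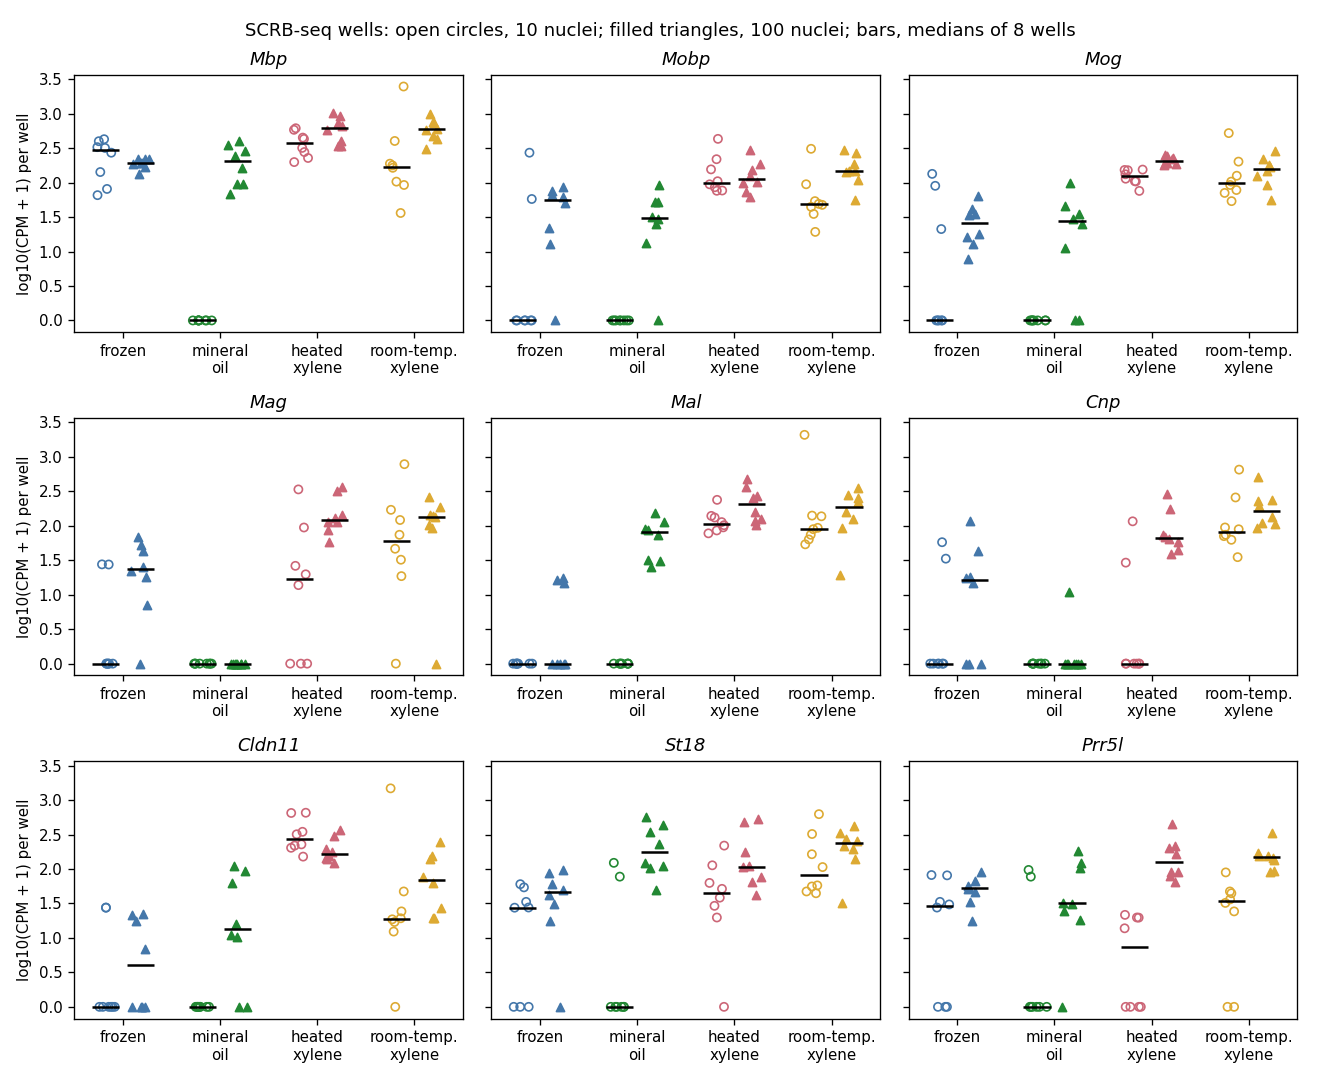
Level of each of the 9 genes in every SCRB-seq well, as log10(CPM + 1) on a linear axis, by group. Open circles are wells of 10 nuclei, filled triangles wells of 100, and bars the median of 8 wells. Mal is near 0 in frozen wells and above them in every xylene well, and Mag is at 0 in all 16 mineral oil wells.

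The comparison of each paraffin removal method with frozen nuclei asks how far FFPE nuclei give the levels of unfixed ones. It was fitted over all genes with edgeR's quasi-likelihood test, with p-values adjusted over all genes by Benjamini-Hochberg. With the usual filter at 10 counts only Mbp and St18 were tested, and St18 was higher in FFPE (log2 difference 1.95, SE 0.46, adjusted p = 0.000189) while Mbp had a log2 difference of 0.57 (SE 0.33, adjusted p = 0.14), against 58.0% of all tested genes called in either direction. With the filter lowered to 3 counts all 9 members were tested, and the values that follow are from that fit. A gene passes this filter on enough counts in about as many wells as 1 group holds. It can thus pass through its highest groups alone. Mal and Cldn11, at most 16.7 and 26.6 CPM in frozen wells, passed through FFPE wells. Mag and Cnp, nearly absent with mineral oil, passed through other wells. Counts of members called below include these genes and are not independent of the filter. The 4 comparisons share the same frozen wells.

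With heated xylene 8 of 9 members were higher than in frozen wells, and with room-temperature xylene 8 of 9, where 18.9% and 16.0% of all tested genes were called higher. The members' median log2 difference was 1.86 with heated xylene, against 0.07 for all genes, and 2.25 with room-temperature xylene, against 0.04. For Mal the edgeR log2 differences were 4.98 (SE 0.62, adjusted p = 3.18e-10) and 5.30 (adjusted p = 4.23e-11), and for Cldn11 4.69 (SE 0.63, adjusted p = 4.15e-09) and 3.48 (adjusted p = 8.32e-06). Without the shallowest room-temperature well the room-temperature values were 4.66 for Mal (adjusted p = 3.54e-10 with edgeR) and 2.55 for Cldn11 (adjusted p = 0.000294). Mog, on the myelin surface, rose by 2.42 and 2.25, and Mag, the adhesion protein, by 2.41 and 2.58. Mbp, at 1.22 (adjusted p = 0.0139 with edgeR) and 1.14 (adjusted p = 0.0256), was the called member with the smallest difference in each. Prr5l missed the threshold, with 0.99 (adjusted p = 0.157 with edgeR) and 1.01 (adjusted p = 0.165). In the wells of 100 nuclei alone, 9 of 9 members were higher with each xylene, against 15.8% of all genes with heat and 9.16% at room temperature, while in wells of 10 nuclei alone 4 and 3 of the 5 members that passed the filter there were higher, against 21.9% and 21.6% of all genes.

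Mineral oil gave another picture: 2 members were higher and 2 lower than in frozen wells, where 12.3% of all genes were called higher and 25.9% lower. Mal rose (log2 difference 3.04, adjusted p = 7.39e-05 with edgeR) and so did St18 (1.64, adjusted p = 0.0100). Mag and Cnp fell (adjusted p = 0.00131 and 0.00461 with edgeR), Mag with no count and Cnp with 1 count in mineral oil wells. Their fitted differences of -3.49 and -2.75 depend on the prior count of the fit and are no measure of size. The members' median was -0.49, against -0.42 for all genes. That median was the same with Mag at its bound, which is also below it. Over all FFPE wells 4 members were called higher, Mal, Cldn11, St18 and Mog, against 15.8% of all genes, and the mean over methods set the xylene levels of Mag and Cnp against their near absence with mineral oil.

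These differences depend in part on scaling. DESeq2's size factors moved the median log2 difference of all genes to -0.56 with heated xylene, -0.45 with room-temperature xylene and -0.77 with mineral oil, and 857 higher and 1239 lower calls over all FFPE wells became 548 and 2094. All 9 members kept a positive log2 difference for both xylene methods under that scaling, and 5 and 6 of them were called, against 10.3% and 9.28% of all genes, with medians of 1.21 and 1.84. Mbp then had 0.56 and 0.75 and was not called higher for either xylene.

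The fitted Mbp difference varied with the number of nuclei in the well. Summed over the wells of 10 nuclei, Mbp stood at 221 CPM in frozen tissue, 396 with heated xylene, 275 with room-temperature xylene and 296 over all FFPE wells, and had no count with mineral oil. Fitted separately, the FFPE minus frozen log2 difference was -1.61 in wells of 10 nuclei and 1.12 in wells of 100 nuclei. The first averages the 3 methods, and its negative sign goes against the summed levels. The fitted value of mineral oil in it, with 0 counts, depends on the prior count. In 1 fit over both sizes, the interaction (the difference at 10 minus that at 100 nuclei) was -2.85 for Mbp (adjusted p = 0.00478 with edgeR), with 18.9% of all genes called for it. The median of that interaction over all genes was -0.46. The same interaction for mineral oil minus the xylene methods was -6.36 for Mbp (adjusted p = 9.08e-05 with edgeR) and -2.69 for St18 (SE 0.98, adjusted p = 0.0227), where 40.3% of all genes were called and the median of all genes was -1.11. Both Mbp interactions include the mineral oil wells of 10 nuclei with 0 counts, so they depend on the prior count and are no measure of size. With DESeq2's size factors the St18 interaction was not called (-2.27, adjusted p = 0.0648 with edgeR). For the xylene methods minus frozen it was -0.73 for Mbp (adjusted p = 0.532 with edgeR), and 4.4% of all genes were called. Summed over the wells of 10 nuclei, Mbp with mineral oil was at least 8.48-fold lower than frozen, at least 15.2-fold lower than heated xylene and at least 10.6-fold lower than room-temperature xylene. Without the shallowest room-temperature xylene well, which held 57 of the Mbp counts, the last bound was 6.37-fold.

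**Figure D2:**
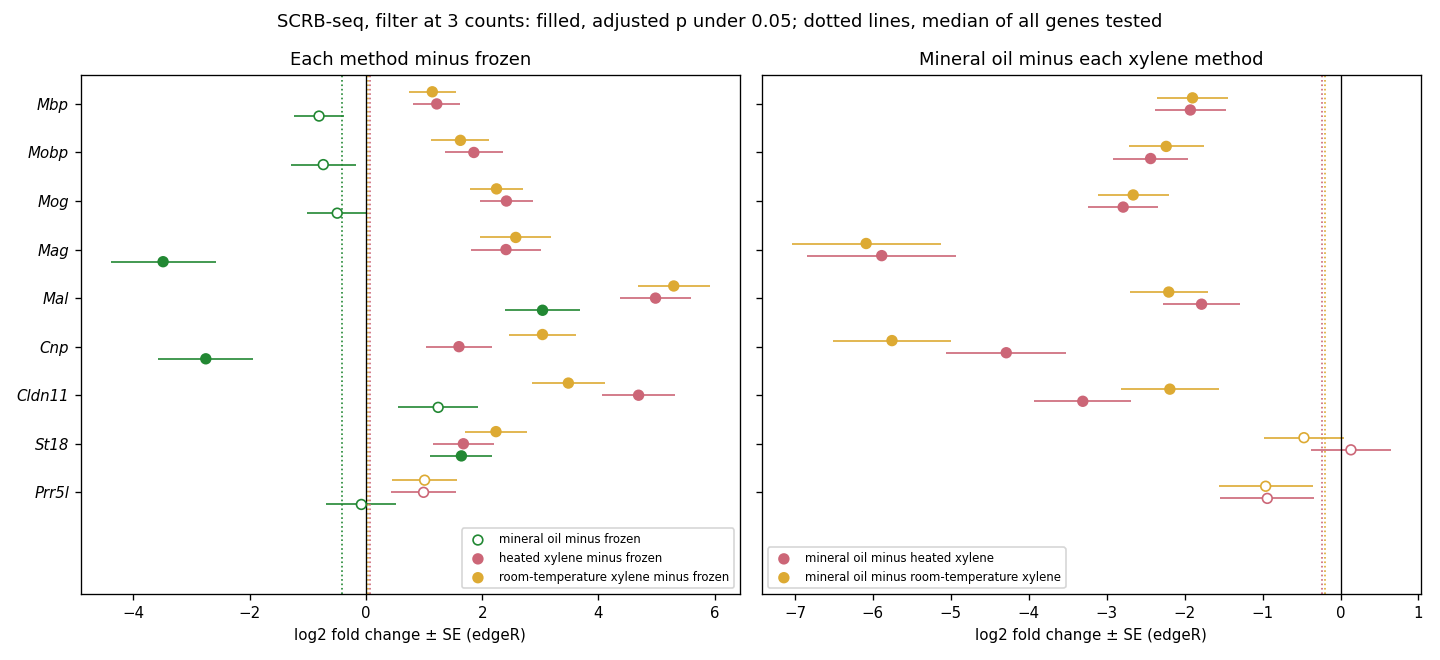
Fitted log2 differences with their SE for the 9 genes in SCRB-seq with the filter at 3 counts, each method minus frozen on the left and mineral oil minus each xylene method on the right. Filled points have an adjusted p under 0.05, and dotted lines are the medians of all genes. Mal and Cldn11 lie highest for both xylene methods, and the mineral oil values of Mag and Cnp rest on 0 and 1 counts.

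The methods were also compared with each other, which involves no frozen well. With mineral oil 7 of 9 members were lower than with heated xylene, against 10.3% of all tested genes called lower, and 7 of 9 were lower than with room-temperature xylene, against 9.77%. Beside Mag and Cnp, these were Mog (log2 differences -2.79 and -2.66), Mobp (-2.44 and -2.24), Cldn11 (-3.31 and -2.19), Mbp (-1.93, adjusted p = 0.00184 with edgeR, and -1.90, adjusted p = 0.00261) and Mal (-1.78, adjusted p = 0.00924, and -2.20, adjusted p = 0.00159). The 2 others were St18, with 0.13 (adjusted p = 0.899 with edgeR) and -0.47, and Prr5l, with -0.94 (adjusted p = 0.329) and -0.96. The members' medians were -2.44 and -2.20, against -0.23 and -0.21 for all genes. With the filter at 10 counts Mbp was lower and St18 was not called in both comparisons, where 8.52% and 10.3% of all genes were called. In wells of 100 nuclei alone, 7 members were lower than with heated xylene and 5 than with room-temperature xylene, against 9.78% and 5.18% of all genes. Mineral oil wells were also the shallowest, and the part of depth in these differences was not tested.

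Heated and room-temperature xylene gave no call by edgeR for any of the 9 members, where 6.34% of all genes were called, and 2 members had an unadjusted p under 0.05. These were Cnp, with a log2 difference of -1.47 (adjusted p = 0.0606 with edgeR), and Cldn11, with 1.12 (adjusted p = 0.196 with edgeR). With nuclei number as a covariate Cnp was called lower with heat (-1.74, SE 0.49, adjusted p = 0.0116 with edgeR), against 12.7% of all genes called in that fit. The shallowest room-temperature well weighed on both xylene results. Without it Cldn11 was higher with heat (log2 difference 2.21, SE 0.48, adjusted p = 0.0014 with edgeR), Mbp was no longer called against frozen wells (0.86, adjusted p = 0.0994), and Cldn11 was no longer called between mineral oil and room-temperature xylene (-1.25, adjusted p = 0.119). The Mal difference in that pair was then -1.59 (adjusted p = 0.0118 with edgeR).

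SMART-Seq2 measured the same 4 groups with 1 well per nuclei number. Values are given for 100, 50 and 10 nuclei in that order. Mbp was at 165, 62.9 and 33.7 CPM in frozen wells, at 344, 335 and 293 with heated xylene, at 585, 389.9 and 173 with room-temperature xylene, and at 206, 227 and 37.1 with mineral oil. At each nuclei number the frozen well lay below the 3 FFPE wells of that size, and over all sizes frozen and mineral oil wells overlapped. Mobp was at 27.9, 14.8 and 23.6 CPM in frozen wells and above 27.9 in 8 of 9 FFPE wells, the exception being the mineral oil well of 10 nuclei at 3.9. Mal was at 10.7, 0 and 0 CPM in frozen wells and between 25.6 and 154 in all 9 FFPE wells, so the groups did not overlap. St18 was at 55.7, 22.2 and 1.12 CPM in frozen wells. It was at 483, 365 and 222 with heated xylene, at 406, 359.9 and 414 with room-temperature xylene and at 526, 641 and 704 with mineral oil, all above every frozen well.

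The other members were more uneven between wells. Mag was at 12.9, 7.40 and 0 CPM in frozen wells, at 145, 298 and 148 with heated xylene and at 108, 84.7 and 319 with room-temperature xylene. With mineral oil it was at 26.9, 14.2 and 0, which overlapped with the frozen wells. Cnp was at 4.29, 11.1 and 0 CPM in frozen wells, at 169, 221 and 198 with heated xylene, at 118, 146 and 0 at room temperature and at 17.5, 66.2 and 0 with mineral oil. Mog had no count in any of the 4 wells of 10 nuclei, and reached 121 CPM in the heated xylene well of 100. Cldn11 was at 6.43, 33.3 and 10.1 in frozen wells and between 0 and 106 in FFPE wells. Prr5l was at 25.7, 11.1 and 4.49 in frozen wells and between 0 and 347 in FFPE wells. For Mog and Prr5l the frozen wells overlapped with the wells of every method. For Cldn11 they overlapped with mineral oil and room-temperature xylene wells, while the 3 heated xylene wells lay above every frozen well.

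**Figure D3:**
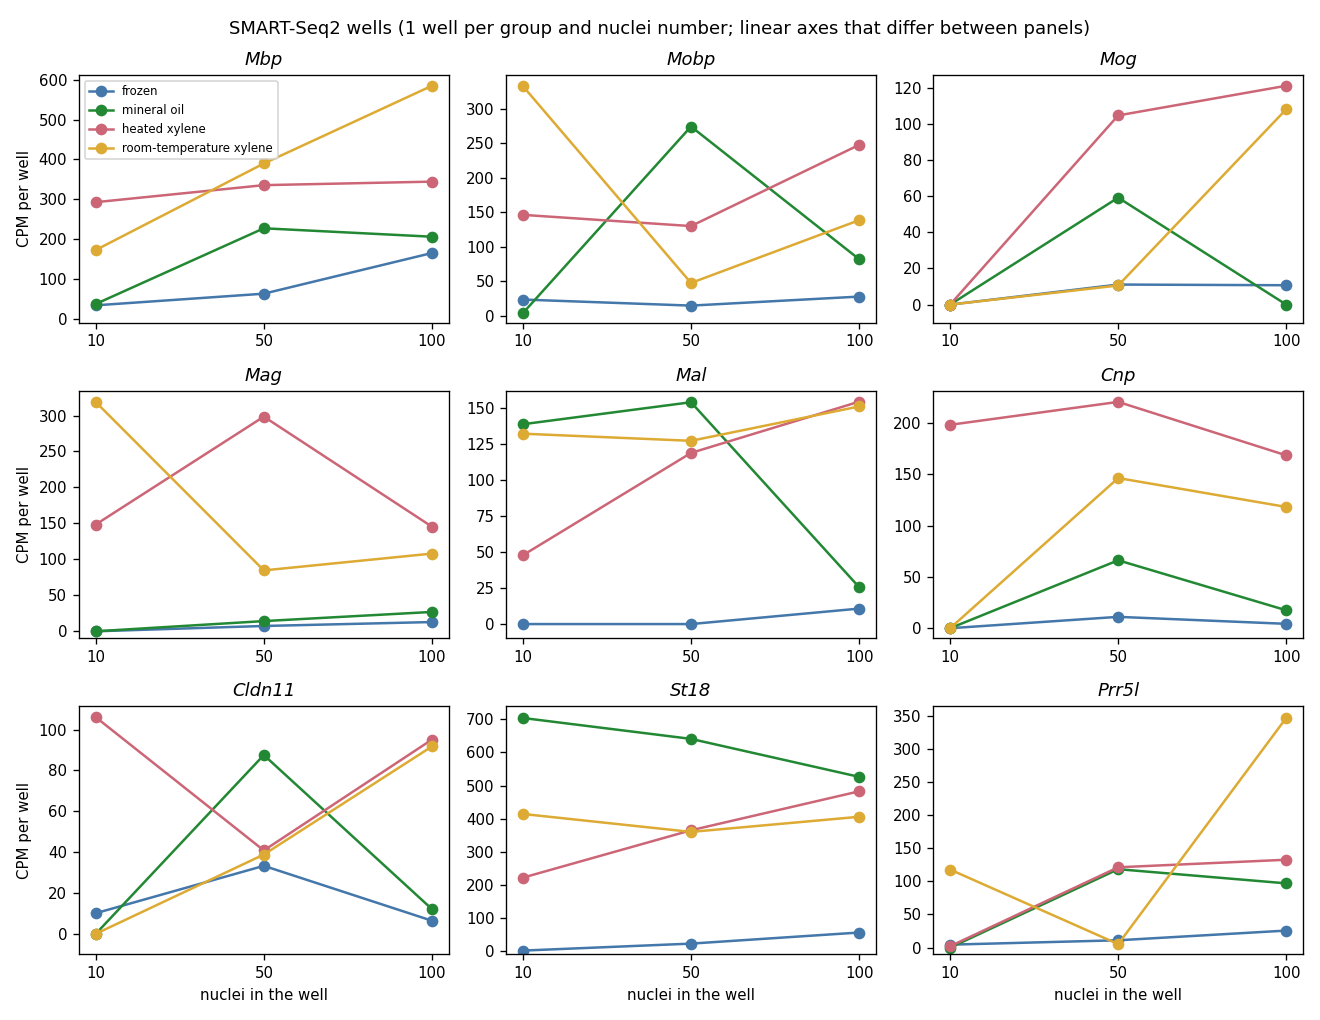
CPM of each of the 9 genes in every SMART-Seq2 bulk well against the number of nuclei (10, 50 or 100), on linear axes that differ between genes. Lines join the 3 wells of a group. Frozen wells lie below all 9 FFPE wells for St18 and Mal, and the mineral oil lines of St18 do not fall at 10 nuclei.

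Over the 9 FFPE and 3 frozen wells, all 9 members had a positive FFPE minus frozen log2 difference by edgeR, with a median of 2.52 against -0.13 for all genes. St18 (3.82, SE 0.76, adjusted p = 0.00297 with edgeR) and Mal (4.66, SE 1.26, adjusted p = 0.0336) passed the threshold, against 1.45% of all tested genes called higher. Of the others, Cnp had 3.86 (adjusted p = 0.191 with edgeR), Mag 3.32 (adjusted p = 0.139), Prr5l 2.52, Mobp 2.48 (adjusted p = 0.19), Mog 2.16, Cldn11 1.36 and Mbp 1.32 (adjusted p = 0.342). DESeq2's Wald test called 5 members higher, St18, Mal, Mag, Cnp and Mobp, against 3.76% of all genes. St18 passed on leaving out any 1 of the wells. Mal passed too except without the frozen well of 10 or of 50, the heated xylene well of 100 or of 50, or the mineral oil well of 50, and without the mineral oil well of 10 Mag and Mobp passed as well, 4 members in all. The share of all genes called is not given for these fits, so no excess of members is read from them.

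Between the 3 methods, edgeR called 0 members and 0.0% of all genes in each of the 3 pairs. At an unadjusted p under 0.05 it found 314 genes for mineral oil against heated xylene, 379 for mineral oil against room-temperature xylene and 199 for the xylene methods. Mag was the member below that level in both pairs with mineral oil, with log2 differences of -3.88 and -3.62. DESeq2's Wald test called 28, 27 and 2 genes in these pairs, with 1 member lower with mineral oil than with heated xylene. St18 made up 54.3% of the members' counts with mineral oil. Per kilobase of exon, St18 stood at 67.4 CPM in FFPE wells, above Mbp at 34.3, while in frozen wells St18 stood at 3.14 and Mbp at 8.99. Per kilobase of the whole gene with its introns, St18 was below Mbp in both. It was at 1.17 CPM against 2.63 in FFPE wells and at 0.0542 against 0.689 in frozen wells.

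Other genes of the lineage, from lists of known genes, were called in both directions between FFPE and frozen wells. The SCRB-seq calls at 10 counts stand against the 58.0% of all tested genes called there, so such a call is common. In SMART-Seq2 1.45% of all tested genes were called higher and 2.64% lower. Of other myelin proteins, Cntn2, an axonal and glial adhesion protein, was higher in SCRB-seq at 10 counts (log2 difference 1.60), and Nfasc, the neurofascin gene, had 0.05. In SMART-Seq2 Nfasc was lower (-1.78). Of myelin lipid enzymes, Ugt8a, which makes galactosylceramide, was tested and higher in SCRB-seq (3.02), and in SMART-Seq2 0 of 7 were called. Of genes with much nuclear RNA in mature oligodendrocytes, 8 were tested in SCRB-seq, with Rnf220, a ubiquitin ligase, higher (1.59) and Slc24a2, a cation exchanger, and Frmd5 lower (-1.84 and -1.49). In SMART-Seq2 16 of these were tested and Frmd5 was lower (-1.34). Of precursor genes, Ptprz1, a receptor phosphatase, was higher (1.72) and Tnr, the matrix protein tenascin-R, lower (-0.67) in SCRB-seq, and 0 of 5 were called in SMART-Seq2. Of oligodendrocyte transcription factors none passed the SCRB-seq filter at 10 counts and 0 of 4 were called in SMART-Seq2.

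Single nuclei in plates gave whole-transcript counts for 143 FFPE nuclei of the batch 2 plates, 98 FFPE nuclei of batch 1 and 137 frozen nuclei. Of the 143, called batch 2 nuclei below, 134 are in the deposited batch 2 table and 9 are in the whole-series table alone. By the annotation the FFPE and frozen nuclei came from the left and the right hemisphere, so side and treatment cannot be told apart, and with 1 sample per group no test was made. Levels are CPM over the summed counts of a group, and intervals (exact, 95%) cover counting error only.

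As a group the 9 genes reached 2738 CPM in batch 2, 2639.5 in frozen nuclei and 2087 in batch 1, while the plates of batch 2, and those of frozen nuclei, differed by more than these groups. The 2 plates of batch 2 gave 4698 and 2135 CPM, the frozen plates 3339 and 1973, and the plates of batch 1 1542 and 2186. Deep nuclei weighed on the sums of batch 2 and of frozen nuclei. Without nuclei above 431562 counts, the highest count in the deposited batch 2 table, batch 2 stood at 3594 CPM over 136 of its 143 nuclei, frozen nuclei at 1327 over 82 of 137 and batch 1 at 2142 over 97 of 98. The 134 nuclei of the batch 2 table gave 3231 CPM. The median over single nuclei was 1284 CPM in batch 2, 639 in frozen nuclei and 315 in batch 1. Granule markers summed to 1085, 79.4 and 1571 CPM in these groups, and their part in the differences was not tested.

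The makeup of the myelin signal differed between the groups. Mbp was at 1328 CPM in batch 2, 1468 in frozen nuclei and 488 in batch 1. Its levels were 2755 and 889 CPM in the 2 plates of batch 2 and 1831 and 1122 in the frozen plates. Without nuclei above 431562 counts Mbp was at 1858 CPM in batch 2 and at 594 in frozen nuclei, so the order of these groups turned. In the 134 nuclei of the batch 2 table Mbp was at 1511 CPM. Mobp was at 389, 479 and 343, and Cnp at 241, 313 and 177. Without nuclei above 431562 counts Mobp was at 573 CPM in batch 2 and 292 in frozen nuclei, and Cnp at 231 and 161, so these orders turned too. The 2 plates of batch 2 gave 896 and 233 CPM for Mobp and 467 and 172 for Cnp. St18 was at 241 CPM in batch 2, 25.8 in frozen nuclei and 499.8 in batch 1, where its 2 plates gave 30.0 and 585. Without the same deep nuclei St18 was at 136 CPM in batch 2 and 31.6 in frozen nuclei. Of the St18 counts of batch 2, 70.6% came from 1 nucleus, against 17.3% in frozen nuclei and 18.8% in batch 1. That nucleus is not in the batch 2 table, whose 134 nuclei held St18 at 138 CPM. Mog, at 150.2, 29.4 and 118 CPM, drew 84.8% of its batch 2 counts from 1 nucleus, and its 2 plates there gave 7.9 and 194 CPM. In the batch 2 table Mog was at 305 CPM, with 97.7% of its counts in 1 nucleus. The levels of Mag were 198, 76.2 and 119.9 CPM, those of Mal 60.8, 52.6 and 113, those of Cldn11 31.0, 24.8 and 80.0, and those of Prr5l 98.3, 171 and 149. Without the same deep nuclei, batch 2 and frozen nuclei held Mal at 19.4 and 28.9 CPM and Prr5l at 80.0 and 38.1. Those orders turned, while those of Mag and Cldn11 did not. Prr5l gave 252 and 94.7 CPM in the frozen plates and 1.13 and 176 in the plates of batch 1. Mal had no count in 1 plate of batch 1, where Mobp made up 59.8% of the members' counts. A single nucleus of the 28 on that plate held 57.1% of the members' counts, and 93.7% of the Mobp counts came from 1 nucleus.

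Shares of nuclei with a count are less open to single deep nuclei. Each nucleus was thinned to 10000 counts, which left 135 nuclei of batch 2, 127 frozen nuclei and 90 of batch 1. Mbp was then counted in 72.6% of batch 2 nuclei (64.3% to 79.9%, Clopper-Pearson), in 62.2% of frozen nuclei and in 26.7% of batch 1 nuclei. Before thinning the shares were 85.3%, 81.8% and 45.9%. St18 was in 23.7% (16.8% to 31.8%) of batch 2, 18.1% of frozen and 38.9% of batch 1 nuclei after thinning, and in 49.0%, 52.6% and 60.2% before. Among the members, 5 had a share over 5 percentage points higher in frozen than in batch 2 nuclei: Mobp (44.1% against 34.8%), Cnp (37.8% against 20.0%), Mal (18.1% against 8.15%), Prr5l (15.0% against 5.93%) and Mog (14.2% against 8.15%). Mag was in 20.5% of frozen and 17.8% of batch 2 nuclei, and Cldn11 in 13.4% and 9.63%.

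**Figure D4:**
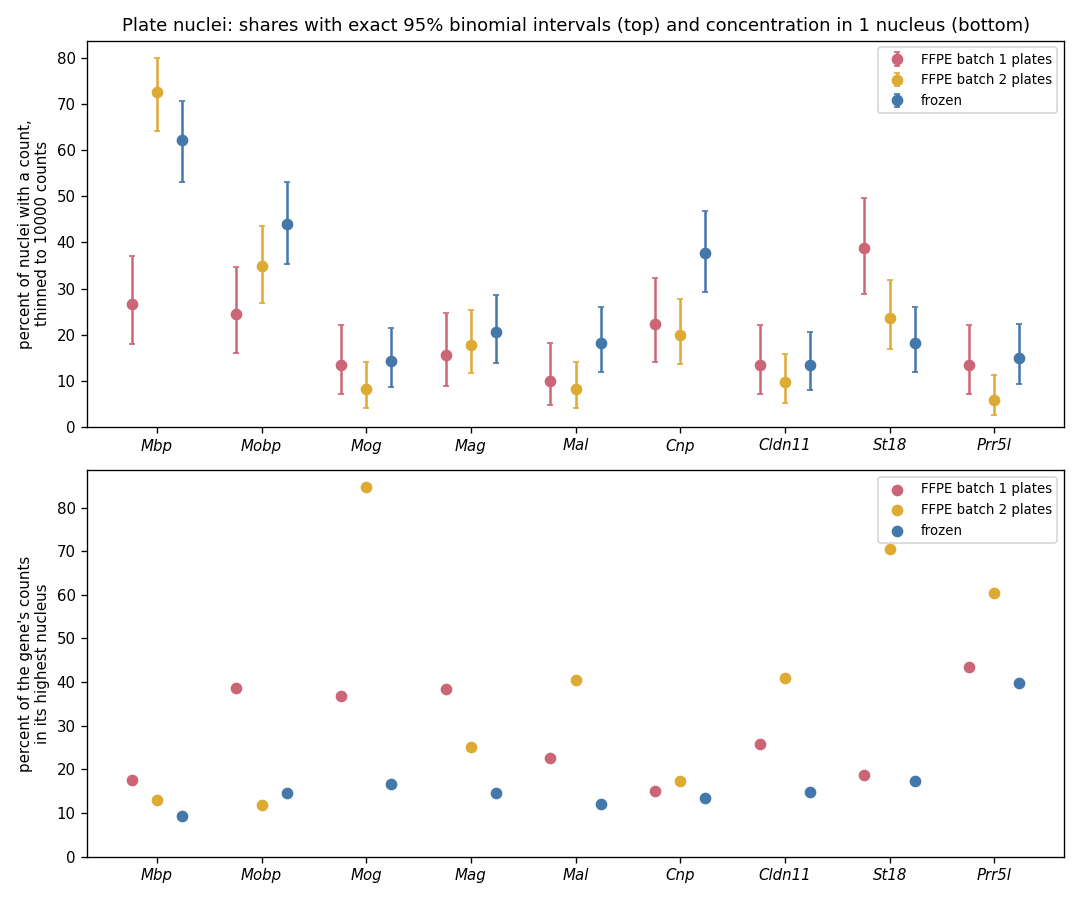
Top: percent of plate nuclei with a count of each gene after thinning to 10000 counts, with exact 95% intervals, for FFPE nuclei of the batch 1 and batch 2 plates and frozen nuclei. Bottom: percent of each gene's counts that came from its highest nucleus. Mbp is in most batch 2 and frozen nuclei, and Mog and St18 of batch 2 draw 84.8% and 70.6% of their counts from 1 nucleus.

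Joint detection counts the members seen in a nucleus, and this number depended on depth, since shares were higher over all counts than after thinning. After thinning, 5 or more members were counted in 22.8% of frozen nuclei, 7.41% of batch 2 and 11.1% of batch 1 nuclei. Over all counts these shares were 43.1%, 25.9% and 16.3%, and all 9 members were found in 24 of 137 frozen, 4 of 143 batch 2 and 6 of 98 batch 1 nuclei. The nuclei with 5 or more members at 5 or more counts numbered 35 in frozen tissue and carried 93.2% of the members' counts and 43.8% of all counts. The 2 frozen plates held 20 and 15 of them, with 94.6% and 90.9% of the members' counts of the plate. In batch 2 there were 13 such nuclei, with 58.9% of the members' counts and 55.6% of all counts. Of these, 4 on the first plate held 40.9% of its members' counts and 18.5% of all its counts, and 9 on the second plate held 71.0% and 67.1%. Only 5 of the 13 are in the batch 2 table, where they held 18.8% and 6.83%. Without nuclei above 431562 counts, 7 such nuclei of batch 2 held 29.0% of the members' counts and 9.44% of all counts, and 9 frozen nuclei held 64.8% and 23.0%. In batch 1 there were 12, with 70.9% and 10.9%, all on 1 plate, and the 28 nuclei of the other plate included none. At least 1 member was counted in 94.4% of batch 2 and 94.2% of frozen nuclei. A single member was found in 30 nuclei of batch 2, most often Mbp (21), in 21 frozen nuclei and in 32 nuclei of batch 1, most often St18 (16).

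Per kilobase of exon, Mbp was the highest member in frozen nuclei, at 173 CPM over both plates, followed by Cnp (85.9) and Mobp (69.9). In batch 2 Mbp was at 157 CPM per kilobase and Mog at 88.1, but on 1 of the 2 plates Mog was at 114 and Mbp at 105, and in the batch 2 table Mog was at 179 and Mbp at 178, where 1 nucleus held 97.7% of the Mog counts. St18 was the lowest in frozen nuclei, at 3.99 CPM per kilobase. In batch 1 St18 was the highest, at 77.3, ahead of Mog at 69.1 and Mbp at 57.7, though in 1 of its 2 plates St18 was at 30.0 CPM and Mbp at 102, before division by length. Division by the length of the whole gene with its introns gave other orders. Mbp was then at 13.3 CPM per kilobase in frozen nuclei, below Cnp at 18.6 and Mobp at 15.1. In batch 1 St18 was then at 1.34, below Mbp at 4.42.

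The droplet library held 7031 FFPE nuclei with 2605198 transcripts counted by molecular identifier (UMIs) and a median of 325 UMIs per nucleus, in 12 classes named by the authors. The 298 nuclei of the oligodendrocyte class held 108758 UMIs. The classes rest on expression in the same nuclei, and there was 1 library, so the values describe the class and are no test. All 9 members were highest in the oligodendrocyte class. Mbp stood at 2133 CPM there (exact Poisson 95% interval 1867 to 2426) and at 744 in the 6 classes named ExNeuron together. Mag stood at 1067 (881 to 1279) against 84.1, St18 at 1011 (831 to 1219) against 177, and Prr5l at 947 (773 to 1149) against 15.4. Mobp was at 736 against 135, Mog at 699 against 54.3, Mal at 634 against 57.7, Cldn11 at 524 against 66.3 and Cnp at 497 against 93.3.

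How strictly a member marked the class varied. Prr5l was 61.6-fold higher in the class than in neurons, and 72.0% of its UMIs lay there. It had 0 UMIs in the oligodendrocyte precursor (OPC), fibroblast and ExNeuron5 classes, which allows up to 48.2, 186 and 27.7 CPM by the exact interval. Mog (12.9-fold), Mag (12.7-fold) and Mal (11-fold) followed, with 36.7%, 35.3% and 31.8% of their UMIs in the class. Mbp was at the other end, 2.87-fold higher, with 10.9% of its UMIs there. For Cnp and Cldn11 the interval overlapped that of another class, microglia for Cnp (239 CPM, up to 492) and fibroblasts for Cldn11 (252 CPM, up to 589). St18 was at 318 CPM in ExNeuron3. Granule markers summed to 956 CPM in the oligodendrocyte class and to 1261 in the neuron classes.

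In single droplet nuclei few members were seen together at this depth. Mbp had a UMI in 47.3% of oligodendrocyte nuclei and in 23.6% of neuron nuclei, at median depths of 314 and 325 UMIs. The neuron shares are given beside those of oligodendrocytes as the level in nuclei of another type, and how much of that level is free RNA was not tested. Mag and St18 had a UMI in 29.5% of oligodendrocyte nuclei each, against 3.06% and 6.13% of neuron nuclei, and Prr5l in 27.5% against 0.573%. Cnp was the least often detected, in 15.4% against 3.35%. At least 2 members were found in 66.8% of oligodendrocyte nuclei, 9.77% of precursor nuclei and 7.54% of neuron nuclei. After thinning to 300 UMIs, which left out 118 of the 298 oligodendrocyte nuclei, these shares were 63.3%, 7.09% and 5.01%. At least 5 members were found in 23 of 298 oligodendrocyte nuclei and in 0 of 5580 neuron nuclei, an exact upper limit of 0.0661%. Mbp made up 25.9% of the members' UMIs in oligodendrocytes and 52.1% in neurons.

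**Figure D5:**
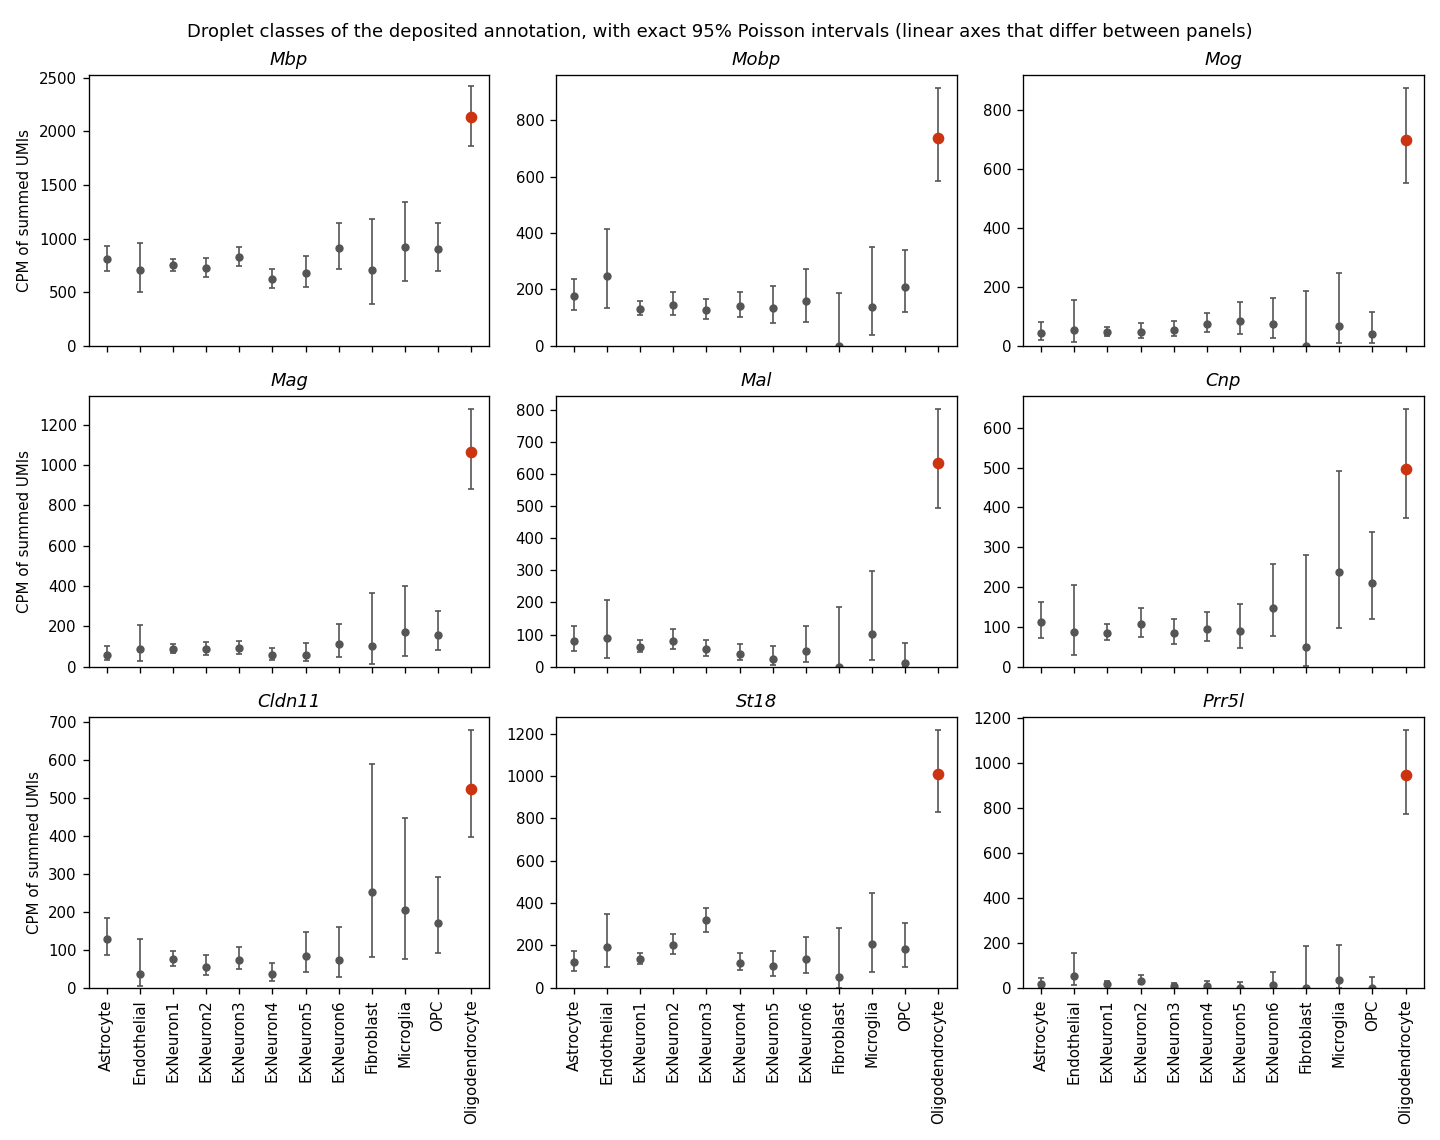
CPM of the summed UMIs of each gene in the 12 droplet classes, with exact 95% Poisson intervals, which cover counting error only. The oligodendrocyte class, in red, is highest for all 9 genes, and the intervals of another class reach it for Cnp and Cldn11. The linear axes differ between genes, so heights are compared within a gene only, such as Prr5l at 947 against 15.4 CPM in the ExNeuron classes.

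The genes whose log2(CPM + 1) over the 12 classes was most like the members' mean, among 5107 genes with at least 100 UMIs, were Aplp1 and Tspan2 (Pearson r of 0.931 each), Scd2 (0.927), Dpysl2 (0.892) and Abca2 (0.890). Of the members themselves, each set against that mean, Mal had 0.935, St18 0.921 and Mog 0.905, while Cldn11 had 0.289. These correlations are over 12 classes of 1 library that share its depth. Of other myelin proteins in the class, Tspan2 was at 653 CPM and Nfasc at 349. Of the other genes listed, those with the highest levels there were Ugt8a (359 CPM), Aspa (267) and Fa2h (221) among lipid enzymes, and Zfp536 (745), Myrf (138) and Olig1 (129) among transcription factors. Pde4b (2602), Tmeff2 (2096) and Slc24a2 (2032) led the genes with much nuclear RNA. Among precursor genes, Bcas1 was at 303 CPM and Ptprz1 at 138 in the class, and Tnr was at 119.5 CPM there and at 2756 in precursors.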

How the data were processed

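Nuclei of mouse brain were measured by bulk SCRB-seq, bulk SMART-Seq2, SMART-Seq2 in plates and droplets. The deposited bulk and plate tables hold raw counts per gene, and the deposited droplet table holds UMI counts on a reference named mm10_premrna in the authors' gene table. The authors' droplet annotation also deposited the fraction of mitochondrial counts, which was not used in a comparison. The builds are hg19 and mm10 per the submitters' processing notes. The sources used here name no aligner, counter or strand setting, and do not say how SCRB-seq reads were collapsed to counts. Human genes of the combined SCRB-seq reference were left out. The batch 3 plate table holds no nuclei. Of the 143 FFPE plate nuclei set beside frozen ones, 134 equal the batch 2 table and 9 are not in it.

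Groups of wells and nuclei were taken from the authors' annotation. CPM is counts per 1000000 mouse counts of a well, nucleus or summed group. Bulk counts were fitted over all genes with edgeR 4.0.16 in R 4.3.3 (TMM, quasi-likelihood test, filterByExpr with a minimum count of 10 or 3, Benjamini-Hochberg threshold 0.05). Alternatives were DESeq2 1.42.0, its size factors, other filters, wells of 1 size, a covariate for nuclei number and leaving out wells, and the fits were tested on simulated data. Intervals are exact, 95%, and cover counting error only. No doublet caller was run on the droplet nuclei, whose classes are the authors'. Tables, figures and sequences were handled in Python 3.11 with pandas 2.3.3, numpy 2.4.6, scipy 1.17.1 and matplotlib 3.10.9.

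The members and the lists were chosen with earlier results of these data known. The lists were other myelin proteins, myelin lipid enzymes, oligodendrocyte transcription factors, genes with much nuclear RNA in mature oligodendrocytes, precursor genes and granule neuron markers. The text names all 9 members. From the lists it names genes called in FFPE against frozen wells, up to 3 per list by level in the oligodendrocyte class, and the 5 genes most like the members' mean over classes. Nfasc of SCRB-seq was named after its value was seen. A result of the list of other myelin proteins is not reported here.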

Additional observations from a re-analysis of the deposited data

Results flagged for a closer look

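Of 71 sets of 8 SCRB-seq wells (a member, or the sum of the members, in 1 group and size), 19 had a well set far apart from the other 7. The rule was Dixon's, which sets the gap to the next well against the range of the 8 wells. Chance gives about 1 in 20 for independent, normally distributed values. These sets are neither, since 7 of the 19 are 1 well and many counts are low, so no excess is read from the number. The shallowest room-temperature xylene well of 10 nuclei, with 23015 counts, was such a well for Mbp (2477 CPM, next 401), Mog (521, next 200.5), Mag (782, next 169), Mal (2086, next 139.5), Cnp (652, next 257), Cldn11 (1477, next 46.2) and the sum of the members (8125, next 1315). St18, Prr5l and Mobp had 1 count each there, or 43.4 CPM. Another well of the same group stood apart for Mobp (308 CPM, next 93.5).

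With heated xylene, wells of 10 nuclei stood apart for Mobp (429.8 CPM), Mag (336), Mal (237) and Cnp (115), and a well of 100 nuclei for Prr5l (447). With room-temperature xylene, wells of 100 nuclei stood apart for Cnp (508) and Prr5l (333). With mineral oil, wells of 100 nuclei stood apart for Mog (97.4) and Cnp (10.1, a single count). Among frozen wells, those standing apart were for Mobp at 10 nuclei (270.4) and for Cnp at 100 nuclei (117).

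Effects that differed between wells of 10 and of 100 nuclei by the edgeR interaction were FFPE minus frozen for Mbp (-2.85), mineral oil minus xylene for Mbp (-6.36) and mineral oil minus xylene for St18 (-2.69), all log2 values at 10 minus at 100 nuclei. Mbp had no count in mineral oil wells of 10 nuclei, so its fitted values of -2.85 and -6.36 depend on the prior count and are no measure of size.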

How the results depend on the processing

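Over the SCRB-seq results and the alternatives run, 305 values kept their direction and side of the threshold or stayed within 1.5 times, 20 lost a call or fell, 7 gained and 10 reversed. For SMART-Seq2 these were 134, 5, 5 and 0. Counts below are members called. The share of all genes called differed between fits and is not given for each of them. These counts thus show only how the calls changed, and no excess of members is read from them. With the filter at 3 counts, 5 members were tested in wells of 10 nuclei alone. FFPE minus frozen gave 1 in wells of 10, heated xylene minus frozen 5 with DESeq2's size factors and 4 in wells of 10, mineral oil minus frozen 2 in wells of 10, and room-temperature xylene minus frozen 3 in wells of 10. With heated xylene 10.3% of all genes were called higher under those size factors and 21.9% in wells of 10. The share in wells of 10 was 21.6% with room-temperature xylene. Heated minus room-temperature xylene gave 1 with nuclei number as a covariate and 1 without the shallowest room-temperature well, a choice made after seeing the data.

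With the filter at 10 counts 2 members were tested, so fits with more genes gave more calls. FFPE minus frozen gave 4 with the filter at 3 counts (15.8% of all genes called higher), 4 with no filter and 6 in wells of 100. Heated xylene minus frozen gave 8 and 8 with these filters, 8 in wells of 100, 0 in wells of 10, 1 with DESeq2's Wald test and 0 with its size factors. Room-temperature xylene minus frozen gave 8, 8, 8, 0, 1 and 1 in the same order, and 1 without the shallowest well. With the filter at 3 counts, 18.9% (heated) and 16.0% (room temperature) of all genes were called higher. Mineral oil minus frozen gave 4, 4 and 4 (wells of 100), and 2 with each DESeq2 setting. Mineral oil minus heated xylene gave 7, 7 and 6 and minus room-temperature xylene 7, 7 and 4 with these filters and in wells of 100. In these pairs 10.3% and 9.77% of all genes were called lower with the filter at 3 counts. Heated minus room-temperature xylene gave 1 with no filter, and the mineral oil minus xylene interaction 6 with the filter at 3 counts and 1 with size factors. In SMART-Seq2, FFPE minus frozen gave 5 with DESeq2's Wald test and 1 to 4 on leaving out 1 well, and mineral oil minus heated xylene gave 1 with the Wald test.

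Reversed log2 differences were Mbp FFPE minus frozen (-1.61, wells of 10), and, for mineral oil minus frozen, Mbp (0.17, wells of 100), Cldn11 (-1.65, wells of 10), Mog (0.13, wells of 100) and Prr5l (0.24 in wells of 100, 0.0755 with no filter). St18 turned for mineral oil minus heated xylene (-0.0272 with no filter, -0.0426 with the covariate), against room-temperature xylene (0.10 in wells of 100) and for the xylene minus frozen interaction (-0.38 with size factors). All of these are members not called in the fit reported. Mineral oil wells of 10 had 0 counts of Mbp and Cldn11, so both values in wells of 10 depend on the prior count and are no measure of size. The cause of the others was not tested.

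The share of plate nuclei with at least 1 member moved in batch 2 from 94.4% to 81.1% when 5 counts were required and to 85.9% after thinning. Under these 2 settings the share was 77.4% and 74.0% in frozen nuclei and 66.3% and 71.1% in batch 1. The share with 5 or more members fell to 9.09% and 7.41% in batch 2 and to 25.5% and 22.8% in frozen nuclei. The summed level was 3313 CPM as a mean over nuclei and 3594 without very deep nuclei in batch 2, 2124 and 1327 in frozen nuclei, and 3132 and 2142 in batch 1. In droplet neurons it was 1363 CPM after thinning and 1533 as a mean over nuclei. Depth limits the mineral oil wells of 10 nuclei, whose pool of 115185 counts cannot show a level under 3 counts of that total, and wells stand for 1 sample each. No paired analysis was possible because the labels give the wells no replicate numbers.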
